A study of Mus musculus with 17 samples.

Results

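The step between the first and the second day of 2i was followed in 9 RNA-seq libraries of mouse embryonic stem cells, the 4 taken after 2 days and the 5 taken after 1 day, out of 17 libraries in the series. They were chosen by the time in 2i that their labels give, and each genotype was compared with itself. The day 2 libraries were 2 of RNAPII-mut cells (genotype slow/slow, called mutant here) and 2 of WT cells. The day 1 libraries were 3 of mutant and 2 of WT cells. All were E14 cells kept without feeders on gelatine, in medium with 10% fetal bovine serum and 1000 U per mL of LIF. Both genotypes at both days had received 1 µM PD0325901, which blocks MEK, and 3 µM CHIR99021, which blocks GSK3. The mutant carries a slow-elongating RNA polymerase II according to the series title, and the mutation and the cell line that holds it cannot be told apart here. Nothing in the labels says that the replicates were separate cultures, so the p-values measure the spread between these libraries, which may be technical.

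2i shifts mouse embryonic stem cells toward naive pluripotency, the state of the early epiblast. Blocking MEK removes the ERK signal and with it the transcription of ERK feedback genes and of factors that prepare cells for lineage choice. Blocking GSK3 stabilises beta-catenin and relieves repression by TCF factors at naive genes, while LIF acts in parallel through STAT3.

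The libraries of days 1 and 2 held 47350441 to 55344059 counts each, and levels are given as CPM, which scale each gene's count to the size of its library. Replicates correlated across genes at r = 0.984 in the mutant at day 2, 0.980 to 0.988 in the mutant at day 1, 0.954 in WT at day 2 and 0.938 in WT at day 1, where genes are not independent replicates. All 9 libraries expressed embryonic stem cell genes, with a summed level over 12 core pluripotency genes of 7554 to 10460 CPM at day 2 and 6204 to 11480 CPM at day 1. One library, WT day 1 replicate 1, stood apart in smooth muscle, collagen and mesoderm transcripts. Acta2 and Tagln, both of smooth muscle, were at 327 and 508 CPM in it, and at 0.118 and 2.16 CPM in WT day 1 replicate 2. Col1a1, a fibrillar collagen, was at 123 CPM in the first and 2.32 CPM in the second, and T, the mesoderm regulator, at 91.5 and 6.73 CPM. WT day 2 replicate 1 held Acta2 and Col1a1 at lower levels, 41.5 and 44.5 CPM, where WT day 2 replicate 2 had 0 and 3.96 CPM. Fits below without WT day 1 replicate 1 keep WT day 2 replicate 1. In WT they leave replicate 2 as the only day 1 library. Such fits are therefore unbalanced the other way for these transcripts and are not corrected values. WT replicate 2 differed too, with Gata6, of primitive endoderm, at 8.52 CPM at day 1 and 6.27 CPM at day 2. In the other libraries of these days Gata6 was at 1.65 CPM or less. The summed level of 22 primitive endoderm genes was also highest in WT replicate 2, at 3659 CPM at day 1 and 4590 CPM at day 2. The summed level of 12 smooth muscle genes was 180.5 to 525 CPM at day 2 and 190.0 to 2223 CPM at day 1, the highest value being that of WT day 1 replicate 1. That of 27 fibroblast and stromal genes was 1925 to 2822 CPM at day 2 and 1320 to 2839 CPM at day 1. WT replicate 1 was the highest at each day, so this sum was about level between its days. In bulk libraries, fewer cells of a type and less RNA per cell cannot be told apart.

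Day 2 was set against day 1 within each genotype and averaged over genotypes, to ask what a second day of the inhibitors adds to the first. Of 15365 genes tested, 1650 (10.7%) had an unadjusted p under 0.05. At an adjusted p under 0.05, 10 passed (0.0651%), 3 of them higher at day 2 (0.0195%) and 7 lower (0.0456%). The genes that fell were Cdkn1c (p57, an inhibitor of cyclin-dependent kinases), Id1 (an inhibitor of basic helix-loop-helix factors and a BMP target), Lgals3 (galectin-3, a sugar-binding lectin), Spink1 (a secreted serine protease inhibitor), Tuba1a (an alpha-tubulin), Tmsb4x (thymosin beta 4, which binds actin monomers) and Fundc2 (a protein of the outer mitochondrial membrane). The genes that rose were Ablim1 (an actin-binding LIM protein), Atp2b4 (a plasma membrane calcium pump) and Tmem194, now called Nemp1, a protein of the inner nuclear membrane. Fold changes lay between 1.98 for Fundc2 and 11.8 for Spink1, and 9 of the 10 were at least 2-fold. In all 10 the days did not overlap within either genotype, which was so for 1218 of the 15365 genes tested. The first day of 2i had passed far more genes in the same fit, 747 (4.86%), and 7 days against none passed 4200 (27.3%).

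Promoters of 4 of these genes, chosen after their values were seen, are shown. They belong to Tmsb4x, Fundc2 and Lgals3, which fell, and Tmem194, which rose, and shared control was not tested. Each is the 300 bases around the RefSeq start site on GRCm38.p6, read along the gene's strand.
Tmsb4x: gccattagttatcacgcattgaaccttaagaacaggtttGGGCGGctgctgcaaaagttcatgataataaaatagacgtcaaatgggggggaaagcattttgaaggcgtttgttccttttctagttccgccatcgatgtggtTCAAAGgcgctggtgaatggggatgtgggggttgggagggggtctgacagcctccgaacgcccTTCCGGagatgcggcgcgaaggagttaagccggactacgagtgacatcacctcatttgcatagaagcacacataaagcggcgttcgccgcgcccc
Fundc2: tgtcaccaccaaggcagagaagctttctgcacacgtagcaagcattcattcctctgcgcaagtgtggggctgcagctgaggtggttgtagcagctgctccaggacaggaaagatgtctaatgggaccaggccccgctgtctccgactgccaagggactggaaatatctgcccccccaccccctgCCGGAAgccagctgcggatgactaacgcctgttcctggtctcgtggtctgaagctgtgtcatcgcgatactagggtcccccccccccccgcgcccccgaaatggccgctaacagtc
Lgals3: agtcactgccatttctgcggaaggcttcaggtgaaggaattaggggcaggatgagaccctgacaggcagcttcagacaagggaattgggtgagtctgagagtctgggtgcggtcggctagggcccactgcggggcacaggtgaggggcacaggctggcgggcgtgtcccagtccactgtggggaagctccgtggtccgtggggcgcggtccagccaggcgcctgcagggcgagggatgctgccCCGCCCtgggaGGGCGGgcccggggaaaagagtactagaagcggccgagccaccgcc
Tmem194: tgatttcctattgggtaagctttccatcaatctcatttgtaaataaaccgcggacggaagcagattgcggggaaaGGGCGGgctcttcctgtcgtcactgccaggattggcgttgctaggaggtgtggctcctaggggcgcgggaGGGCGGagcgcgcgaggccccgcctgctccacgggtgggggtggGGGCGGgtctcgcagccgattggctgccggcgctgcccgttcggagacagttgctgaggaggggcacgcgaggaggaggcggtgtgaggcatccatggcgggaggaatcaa
They lie at chrX:167209169-167209468 on the minus strand, chrX:75382149-75382448 on the plus strand, chr14:47373610-47373909 on the plus strand and chr10:127676815-127677114 on the plus strand. Capitals mark matches on either strand to 5 short motifs: CTTTGA (the TCF/LEF core), CCGGAA (the ETS core), CACGTG (an E-box), GGGCGG (a GC box) and TTCNNNGAA (a STAT motif). Over the table's 32544 distinct promoters of this length, 16.0% hold the TCF/LEF core, 15.0% the ETS core, 7.2% the E-box, 35.9% the GC box and 8.3% the STAT motif. Tmsb4x holds a TCF/LEF core, an ETS core and a GC box, Fundc2 an ETS core, and Lgals3 and Tmem194 GC boxes. Among the other genes that passed and have a single entry, Tuba1a holds a GC box and Atp2b4 none of the 5. A match describes the letters and is not a binding site. Cdkn1c and Id1 are named only.

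The cell cycle and transcription regulators among the genes that fell are described first. Cdkn1c (chromosome 7, 143458339 to 143461050, mm10), an imprinted gene expressed from the maternal allele, was at 14.7 and 18.4 CPM in the mutant at day 2 and at 41.1, 56.3 and 65.4 CPM in the mutant at day 1. WT cells had it at 9.66 and 10.4 CPM at day 2 and at 33.2 and 36.1 CPM at day 1. Every day 2 library lay below every day 1 library, across genotypes as well as within them. Its log2 fold change was -1.75 (SE 0.204), 3.36-fold lower at day 2, adjusted p = 0.016, with -1.71 in the mutant and -1.79 in WT. Without WT day 1 replicate 1 the value was -1.78, adjusted p = 0.0499. Cdkn1a, the p21 member of the same inhibitor family, was at 206.5 and 257 CPM in the mutant at day 2 and 292, 170 and 181 CPM at day 1, with a log2 fold change of 0.019, adjusted p = 0.989.

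Id1 (chromosome 2, 152736251 to 152737410) was at 34.6 and 35.9 CPM in the mutant at day 2 and at 73.2, 100.7 and 78.4 CPM at day 1. The WT values were 15.7 and 9.52 CPM at day 2 and at 48.4 and 24.7 CPM at day 1. Groups did not overlap within a genotype, but both mutant day 2 values lay above the lower WT day 1 value. The log2 fold change was -1.39 (SE 0.204), 2.63-fold lower, adjusted p = 0.0474, and -1.11, adjusted p = 0.0812, without WT day 1 replicate 1. Other genes of the BMP list did not pass. Id2 had a log2 fold change of -1.34 (SE 0.587), adjusted p = 0.443, with the day 2 values overlapping day 1 in WT. Id3 had -0.89 (SE 0.513), Bmp4, the ligand upstream of the Id genes, -0.69 (SE 0.286), and Bmp7 1.02 (SE 0.338), adjusted p = 0.319. Of the 17 tested members of that list, 1 was lower and 0 higher, and the list median was -0.12, or 0.15 without WT day 1 replicate 1.

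Lgals3 (chromosome 14, 47367751 to 47386160) was at 31.8 and 35.8 CPM in the mutant at day 2 and at 115, 119 and 76.1 CPM at day 1. In WT it was at 17.1 and 27.0 CPM at day 2 and at 56.4 and 103 CPM at day 1. All 4 day 2 values lay below all 5 day 1 values, with a log2 fold change of -1.73 (SE 0.279), 3.32-fold lower, adjusted p = 0.049. Spink1 (chromosome 18, 43728082 to 43737557) was a low transcript, at 0.117 and 0.0809 CPM in the mutant at day 2 and 1.25, 6.52 and 3.03 CPM at day 1. Behind those values were 6 and 4 counts at day 2 and 54, 316 and 156 counts at day 1. WT cells had it at 0.743 and 0.485 CPM at day 2 and 1.85 and 2.98 CPM at day 1. Its log2 fold change was -3.56 (SE 0.496), adjusted p = 0.0474. Its mean over the higher of the 2 days, 3.13 CPM, was below the 5 CPM asked of the most changed genes, and it is named because it is among the 10. At day 0 Spink1 averaged 8.22 CPM in the mutant and 10.79 CPM in WT.

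Cytoskeletal and mitochondrial transcripts made up the rest of the genes that fell. Tuba1a (chromosome 15, 98949837 to 98953703) was at 352 and 333 CPM in the mutant at day 2 and 648, 559 and 469 CPM at day 1, and in WT at 333 and 299.6 CPM at day 2 and 948 and 842.5 CPM at day 1. Tmsb4x (chromosome X, 167207093 to 167209315) was at 105.6 and 180.3 CPM in the mutant at day 2 and 259, 256 and 245 CPM at day 1, and in WT at 137 and 106 CPM at day 2 and 341 and 245 CPM at day 1. Both lay lower in every day 2 library than in any day 1 library. The log2 fold changes were -1.10 (SE 0.175) and -1.05 (SE 0.161), each at adjusted p = 0.049. Without WT day 1 replicate 1, which was the highest library for both, they were -1.06 and -0.92, each at adjusted p = 0.169. Alpha-tubulins and thymosins have near-identical copies, and how reads shared between copies were counted is not given in the sources used here. Fundc2 (chromosome X, 75382399 to 75396459) was at 31.7 and 39.9 CPM in the mutant at day 2 and 66.1, 73.9 and 74.1 CPM at day 1, and in WT at 18.7 and 17.9 CPM at day 2 and 35.4 and 36.7 CPM at day 1, a log2 fold change of -0.99 (SE 0.151), adjusted p = 0.049. Its level was lower in WT than in the mutant at both days, while the step was -0.99 in the mutant and -0.98 in WT.

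Among the 3 that rose, Ablim1 (chromosome 19, 57032733 to 57314919) was at 24.6 and 18.5 CPM in the mutant at day 2 and 8.18, 7.14 and 6.56 CPM at day 1. The WT values were 50.8 and 36.2 CPM at day 2 and 16.5 and 14.4 CPM at day 1. All day 2 values lay above all day 1 values, with a log2 fold change of 1.53 (SE 0.245), 2.88-fold higher, adjusted p = 0.049. Atp2b4 (chromosome 1, 133699457 to 133801041) was at 17.7 and 10.3 CPM in the mutant at day 2 and 3.00, 4.09 and 5.24 CPM at day 1, and in WT at 21.4 and 15.5 CPM at day 2 and 11.3 and 8.65 CPM at day 1. Within each genotype the days did not overlap, and the log2 fold change was 1.33 (SE 0.212), adjusted p = 0.049. Tmem194 (Nemp1, chromosome 10, 127666901 to 127701049) was at 40.9 and 33.9 CPM in the mutant at day 2 and 17.5, 17.4 and 19.6 CPM at day 1, and in WT at 43.1 and 43.6 CPM at day 2 and 20.4 and 18.7 CPM at day 1. Both genotypes had like levels at each day, with a log2 fold change of 1.10 (SE 0.157), 2.14-fold higher, adjusted p = 0.0474. Without WT day 1 replicate 1 the values were 1.58 for Ablim1, 1.43 for Atp2b4 and 1.13 for Tmem194, at adjusted p = 0.169, 0.161 and 0.129.

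**Figure D1:**
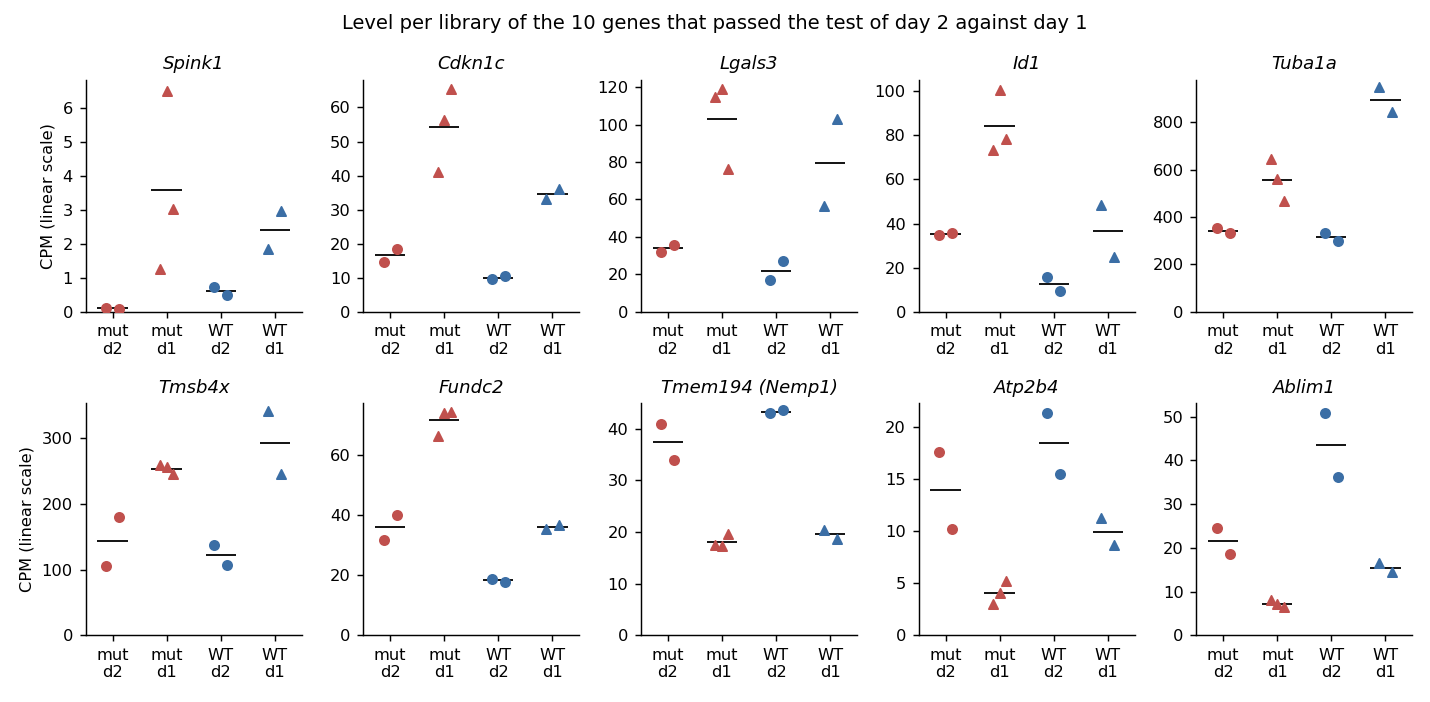
Level in CPM (linear axis from 0) of the 10 genes that passed, in each mutant (red) and WT (blue) library of day 2 (circles) and day 1 (triangles), with the group mean as a bar. Within each genotype no day 2 library overlaps a day 1 library, as for Cdkn1c at 9.66 to 18.4 CPM at day 2 and 33.2 to 65.4 CPM at day 1. Such a lack of overlap was found for 1218 of the 15365 genes tested.

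Which genes passed depended on the tool and on single libraries. Leaving out 1 library at a time left between 0 and 4 genes, with Cdkn1c passing in 5 of 9 such fits, Spink1 in 2, Id1 in 2 and Tmsb4x in 1. Across 18 alternative settings no gene of the 10 changed direction, and the log2 fold change of Cdkn1c kept between -1.83 and -1.67. Another tool, DESeq2, called 337 genes (187 higher and 150 lower, 2.19%), which included all 10.

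The levels over the whole time course were set out to show when each of the 10 genes moved. Cdkn1c averaged 71.9, 54.3, 16.6 and 6.04 CPM in the mutant after 0, 1, 2 and 7 days, and 56.9, 34.7, 10.04 and 3.69 CPM in WT. Id1 averaged 86.2, 84.1, 35.3 and 9.96 CPM in the mutant and 85.1, 36.5, 12.6 and 3.38 CPM in WT. Lgals3 averaged 79.2, 103, 33.8 and 18.2 CPM in the mutant and 76.7, 79.6, 22 and 17.8 CPM in WT, so that its lower levels began with the second day. Ablim1 averaged 7.87, 7.29, 21.6 and 79.3 CPM in the mutant and 12.3, 15.5, 43.5 and 104 CPM in WT, a pattern that was level over the first day and higher at each later time. Tmem194 took another course, at 27.5, 18.2, 37.4 and 51.4 CPM in the mutant and 30.8, 19.5, 43.3 and 44.3 CPM in WT. Tuba1a did so in the opposite sense, with 418, 559, 342.5 and 286 CPM in the mutant and 532, 895, 316 and 219 CPM in WT.

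In the test of the first day alone, which shares the day 1 libraries with the second-day step, only 2 of the 10 passed. Tmem194 had a log2 fold change of -0.63, adjusted p = 0.0375, opposite in sign to its second-day step of 1.10. Spink1 had -1.67, adjusted p = 0.0359, beside a second-day step of -3.56. Lgals3 had 0.22 on the first day and -1.73 on the second, Ablim1 0.11 and 1.53, Fundc2 0.15 and -0.99, and Tuba1a 0.59 and -1.10. Cdkn1c had -0.56 and -1.75, Id1 -0.63 and -1.39, Tmsb4x -0.40 and -1.05, and Atp2b4 0.73 and 1.33. The day 1 libraries enter both values with opposite sign, so neither is independent of the other.

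**Figure D2:**
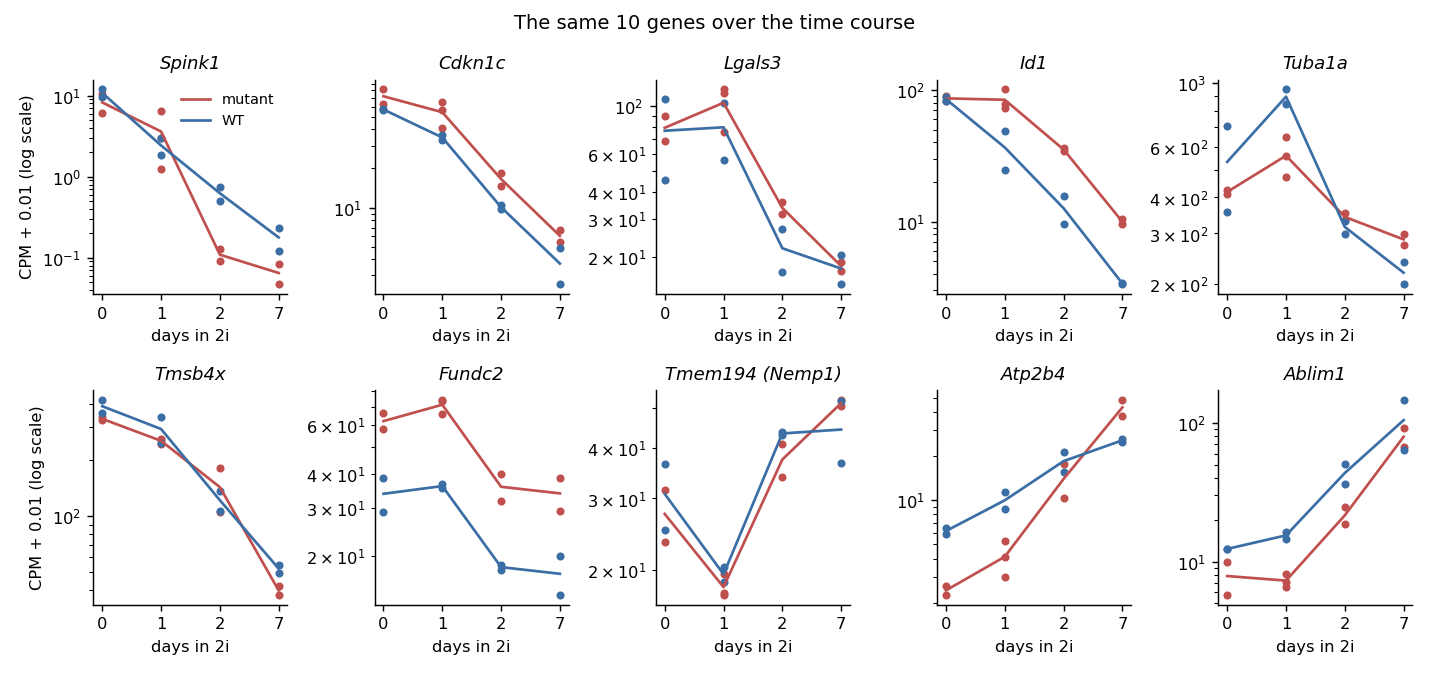
Level of the 10 genes in CPM plus 0.01 (log axis) after 0, 1, 2 and 7 days in 2i (evenly spaced, not to scale in time), with points for libraries and lines for group means of mutant (red) and WT (blue). Lgals3, Ablim1 and Fundc2 are nearly level between days 0 and 1 and step between days 1 and 2.

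Day 7 against day 0 uses no library of days 1 and 2 and gives another view of the same genes. The view is not wholly separate in WT. Replicate 1 there held Acta2 at 151 CPM at day 0, 327 CPM at day 1 and 0.555 CPM at day 7. The part of that trait in the shares below was not tested. All 3 genes that rose on the second day were higher at day 7 than at day 0 and all 7 that fell were lower, where 13.7% of all genes tested passed in each direction. The log2 fold changes from day 0 to day 7 were -3.76 for Cdkn1c, -3.88 for Id1 and -2.98 for Tmsb4x, each at adjusted p = 1.11e-06, and 3.21 for Ablim1 and 3.10 for Atp2b4. Among the 2102 genes higher at day 7 than at day 0, the second-day step was positive in 87.1%, with a median of 0.31 beside a median 7-day change of 1.14. Among the 2098 genes lower at day 7, the step was negative in 85.0%, with a median of -0.35 beside a 7-day change of -1.67. Over all 15365 genes the step was positive in 49.6% and its median was -0.0027.

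Each genotype alone gave similar shares. In genes higher at day 7 the step was positive in 83.8% in the mutant (median 0.33) and 82.7% in WT (median 0.30), and in genes lower at day 7 it was negative in 77.2% in the mutant (median -0.28) and 81.2% in WT (median -0.39). Of the 187 genes that DESeq2 called higher at day 2, 148 (79.1%) were higher at day 7 and 2 (1.07%) lower, and these 148 were 7.04% of the genes higher at day 7. Of the 150 that it called lower at day 2, 112 (74.7%) were lower at day 7 and 0 higher, and these 112 were 5.34% of the genes lower at day 7.

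**Figure D3:**
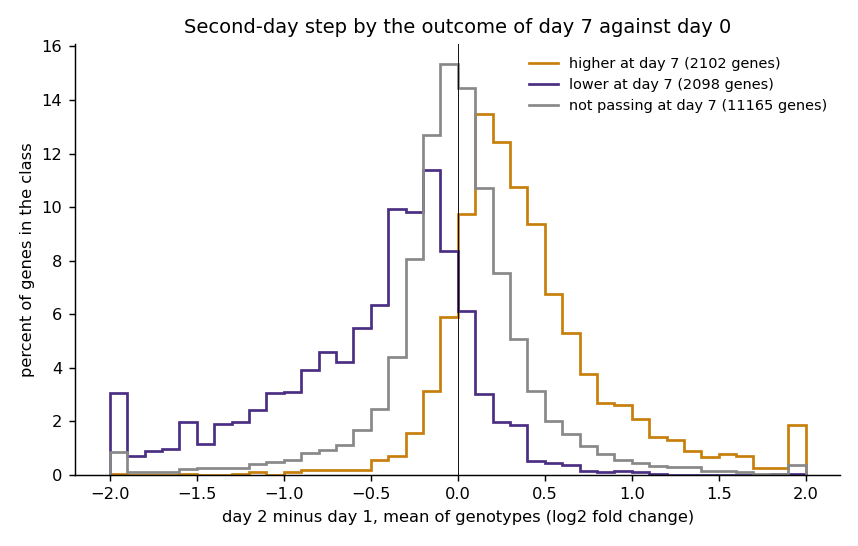
Percent of genes (y axis) by their second-day step, day 2 minus day 1 as log2 fold change averaged over genotypes (x axis, bins of 0.1, values beyond 2 in the end bins), for the 2102 genes higher at day 7 than at day 0, the 2098 lower and the 11165 that did not pass. The first class is shifted to the right of 0 (median 0.31), the second to the left (median -0.35), and the third is centred near 0.

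The step was also taken in each genotype alone, to ask whether the slow polymerase changes it. Across genes the mutant step and the WT step correlated at r = 0.396 over 15365 genes, a description only, since genes within a library share its depth and quality. The 2 steps share no library, and 67.6% of genes had the same sign in both. The 10 genes above also did, which their choice on the mean of both steps largely fixes. In edgeR 0 genes passed for the mutant alone (800 or 5.21% at an unadjusted p under 0.05, 60 or 0.390% by DESeq2). For WT alone 0 passed as well (749 or 4.87% unadjusted, 34 or 0.221% by DESeq2). For the difference between the genotypes 0 genes passed in edgeR (116 at an unadjusted p under 0.05) and 0 in DESeq2, with the smallest adjusted p in edgeR at 1. The 116 are 0.755% of the genes, below the share of 0.05 expected on average without any difference. The fit also took replicates as unpaired, though same-numbered WT libraries deviated together across the days (r = 0.67). The 0 calls therefore cannot show that the genotypes respond alike. Among the 10 genes the difference was largest for Spink1, with a step of -5.15 (SE 0.759) in the mutant and -1.97 (SE 0.646) in WT. Tuba1a had a step of -0.71 (SE 0.236) in the mutant and -1.50 (SE 0.258) in WT, and Atp2b4 1.76 (SE 0.282) and 0.89 (SE 0.313). For Cdkn1c the difference was 0.075 (SE 0.389) and for Fundc2 -0.012 (SE 0.298).

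**Figure D4:**
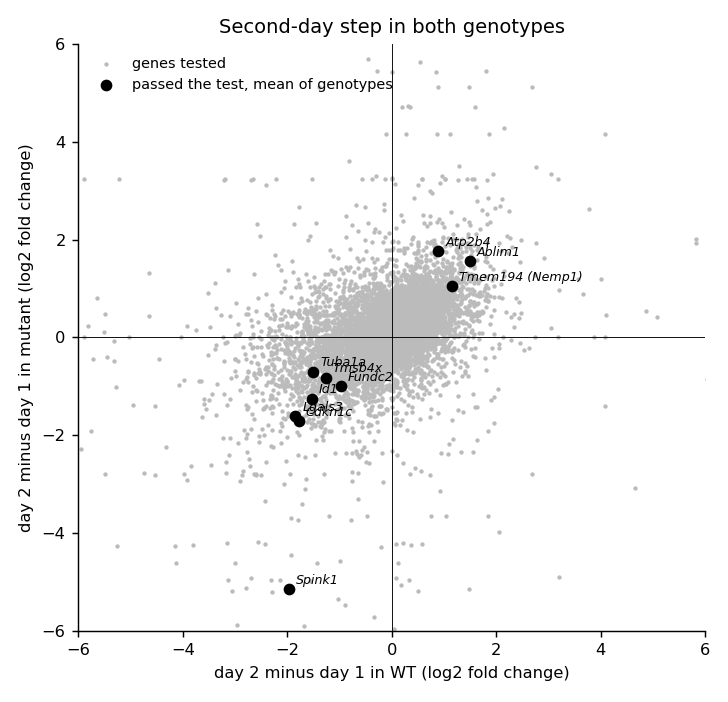
Day 2 minus day 1 as log2 fold change in WT (x axis) and in the mutant (y axis) for each gene tested (grey, axes cut at 6), with the 10 genes that passed in black. All 10 lie in the quadrants where both genotypes have the same sign, which their choice on the mean of both largely fixes.

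The rest of the pathways were read through 38 gene lists, in which the test means edgeR's at an adjusted p under 0.05. Per list, between 0 and 9 members had an unadjusted p under 0.05, and the members that DESeq2 called but edgeR did not are named with their list. Naive pluripotency factors, which hold the cells in the ground state, had 0 of 20 members past the test in either direction and a median log2 step of 0.21, with 16 positive values, beside a median of -0.0027 over all genes. Tfcp2l1, a naive factor downstream of LIF and GSK3 inhibition, was at 1152 and 1057 CPM in the mutant at day 2 and 669, 626 and 951.5 CPM at day 1. In WT it was at 992.5 and 1018 CPM at day 2 and 558 and 1001 CPM at day 1. The mutant days did not overlap, the WT days did, and the log2 fold change was 0.46 (SE 0.181), adjusted p = 0.391. Klf4 had 0.43 (SE 0.205), adjusted p = 0.483, Nanog 0.13 (SE 0.162) and Esrrb 0.20 (SE 0.184). Without WT day 1 replicate 1 the list median was 0.022 and 11 of 20 values were positive. Klf2 had 0.069 (SE 0.194), Klf5 0.43 (SE 0.284), Zfp42 (Rex1) 0.055 (SE 0.203), Prdm14 0.21 (SE 0.213) and Tbx3 0.34 (SE 0.405). Dppa3 (Stella), a maternal factor, had 0.52 (SE 0.536), with -0.089 in the mutant and 1.13 in WT.

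Core pluripotency factors, shared by naive and primed cells, had 0 of 12 members past the test and a median of -0.20, with -0.34 in the mutant and 0.048 in WT. The median was -0.18, with 9 of 12 values negative, without WT day 1 replicate 1. Their summed level was 7554 and 9781 CPM in the mutant at day 2 and 11480, 10640 and 9897 CPM at day 1, so the mutant days did not overlap. In WT it was 7576 and 10460 CPM at day 2 and 6204 and 10790 CPM at day 1, where they did. Lin28a, an RNA-binding protein that blocks let-7 processing, had -0.71 (SE 0.304), Trim28, a corepressor, -0.40 (SE 0.159), and Utf1, a chromatin factor, -0.64 (SE 0.328). Pou5f1 (Oct4) had 0.011 (SE 0.263) and Sox2 0.040 (SE 0.160).

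Genes of the formative and primed states, which precede lineage commitment, had 0 of 18 members past the test, with 16 negative values and a median of -0.62, or -0.22 with 11 negative values without WT day 1 replicate 1. Wnt8a, a Wnt ligand of the primed state, was at 0.527 and 0.445 CPM in the mutant at day 2 and 1.83, 2.06 and 2.04 CPM at day 1. WT cells had it at 1.10 and 0.448 CPM at day 2 and 8.03 and 0.981 CPM at day 1. The mutant days were apart and the WT days overlapped. Its log2 fold change was -2.28 (SE 0.687), adjusted p = 0.276, and it was the 1 member that DESeq2 called. Otx2, which drives exit from naive pluripotency, was at 2.38 and 1.34 CPM in the mutant at day 2 and 1.66, 5.45 and 4.2 CPM at day 1, with a step of -1.02. In WT, at 3.52 and 3.04 CPM at day 2 and 3.25 and 2.90 CPM at day 1, its step was 0.092. The mutant days overlapped and the mean step was -0.46 (SE 0.367), adjusted p = 0.683. Fgf5, a primed-state ligand, was under 1 CPM in all 9 libraries and had -1.66 (SE 1.151). Otx2 had already passed on the first day with a log2 fold change of -3.25, adjusted p = 0.000678.

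The de novo DNA methylation genes Dnmt3a, Dnmt3b and Dnmt3l all passed as lower on the first day, and 0 of 3 passed on the second. Dnmt3l, the catalytically inactive cofactor, was at 34.1 and 36.4 CPM in the mutant at day 2 and 84.7, 130 and 98.7 CPM at day 1. The WT values were 101 and 162 CPM at day 2 and 120 and 241 CPM at day 1. The mutant days were apart and the WT days overlapped, with a step of -1.57 in the mutant, -0.46 in WT and -1.01 (SE 0.314) on average, adjusted p = 0.289. Dnmt3b had -0.51 (SE 0.304) and Dnmt3a -0.16 (SE 0.225), and without WT day 1 replicate 1 the list median of -0.51 was -0.35. Maintenance and TET genes had 0 of 7 members past the test and a median of 0.19, and Uhrf1, which brings Dnmt1 to replicated DNA, had 0.22 (SE 0.232).

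ERK feedback inhibitors, the negative regulators that ERK itself induces, had 0 of 16 members past the test on the second day, with a median of -0.32, or -0.082 without WT day 1 replicate 1 (WT alone -0.49 and 0.12). In that list 8 had passed as lower on the first day (median -1.11), against 2.46% of all genes lower and 2.40% higher in that step. Spry4 was at 2.19 and 0.688 CPM in the mutant at day 2 and 0.277, 10.4 and 3.96 CPM at day 1, with a log2 fold change of -1.55 (SE 0.681), adjusted p = 0.444, and -5.93 on the first day. Dusp6, the ERK phosphatase, had -0.65 (SE 0.529) and Etv4, an ETS factor induced by ERK, -0.88 (SE 0.590). Myc, an ERK and STAT3 target that drives growth genes, was at 20.07 and 14.1 CPM in the mutant at day 2 and 17, 37.0 and 46.5 CPM at day 1. In WT it was at 18.5 and 5.49 CPM at day 2 and 18.03 and 55.9 CPM at day 1. The days overlapped in both genotypes, and the log2 fold change was -1.30 (SE 0.424), adjusted p = 0.308. ETS factors and immediate early genes had 0 of 25 past the test and a median of -0.38, which turned to 0.21 without WT day 1 replicate 1. Fos, an AP-1 subunit, had -1.69 (SE 1.125) and Etv5, an ETS factor, -0.039 (SE 0.178). Egr1, an immediate early gene, was at 109 and 1.70 CPM in the mutant at day 2 and 8.55, 162 and 3.92 CPM at day 1, so its values within each day spanned most of the range of both days.

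Wnt targets, which respond to the GSK3 inhibitor, had 0 of 21 members past the test and a median of -0.32, or -0.14 without WT day 1 replicate 1. Axin2, a feedback inhibitor of the pathway, was at 52.9 and 55.3 CPM in the mutant at day 2 and 36.2, 29.6 and 66.6 CPM at day 1, a step of 0.29. In WT, at 82.3 and 42.4 CPM at day 2 and 111 and 70.4 CPM at day 1, its step was -0.54. The days overlapped in both genotypes, and the mean step was -0.12 (SE 0.323), adjusted p = 0.926. Lef1, a factor that binds beta-catenin, had -1.16 (SE 0.816). Cdx1, a homeobox target, had passed on the first day with 4.09, adjusted p = 0.000214, and had 0.56 (SE 0.342), adjusted p = 0.585, on the second. Nodal pathway genes had 0 of 13 past the test, and DESeq2 called 1 of them higher, Acvr1b, a type I activin receptor with a log2 fold change of 0.85 (SE 0.233). Lefty1, a Nodal antagonist, was at 138 and 158 CPM in the mutant at day 2 and 335, 423 and 265 CPM at day 1. WT cells had it at 100.0 and 11.4 CPM at day 2 and 331 and 84.5 CPM at day 1, where the days overlapped, and its adjusted p was 0.462. FGF ligands and receptors had 0 of 13 past the test and LIF and STAT3 genes 0 of 15, with medians of -0.41 and 0.041, or -0.12 and 0.12 without WT day 1 replicate 1.

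Among growth and metabolic lists none had a member past the test apart from Cdkn1c, 1 of 22 G1 regulators, in which Ccnd1 (cyclin D1) had -0.32 (SE 0.278). Amino acid response genes, targets of ATF4 that import and synthesise amino acids, had positive values in 21 of 23 members, with a median of 0.48 in all libraries and 0.31 without WT day 1 replicate 1, and 0 passed. Aldh18a1, which makes proline, was at 176 and 153 CPM in the mutant at day 2 and 107, 91.8 and 88.4 CPM at day 1, and in WT at 101.5 and 187 CPM at day 2 and 52.6 and 101 CPM at day 1. Each genotype's days were apart, and the log2 fold change was 0.84 (SE 0.280), adjusted p = 0.319. Asns, asparagine synthetase, had 0.53 (SE 0.247) and Psat1, of serine synthesis, 0.54 (SE 0.267). Ribosomal protein genes had negative values in 40 of 43 members, with a median of -0.13, composed of -0.29 in the mutant and 0.025 in WT, and 0 passed. Without WT day 1 replicate 1 the WT median was -0.23.

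Glycolysis genes had 0 of 26 members past the test and a median of -0.055, or -0.14 without WT day 1 replicate 1. DESeq2 called Hk1, hexokinase 1, higher (log2 fold change 1.02, SE 0.297) and Eno3, the muscle enolase, lower (-1.03, SE 0.178). MYC family and target genes had 0 of 25 past the test, 19 negative values and a median of -0.20, and DESeq2 called Nolc1, a nucleolar phosphoprotein, lower at -0.41 (SE 0.097). Cholesterol and fatty acid synthesis genes had 0 of 25 and 0 of 16 past the test, with medians of -0.13 and 0.15, or -0.083 and 0.16 without that library. DESeq2 called Scd1, a fatty acid desaturase, higher and Aen, a p53-induced nuclease, lower, with log2 fold changes of 0.49 and -0.39. DNA replication, p53 target, oxidative phosphorylation, chaperone, and lysosome lists also had 0 members past it, with medians of -0.033 for DNA replication, -0.24 for p53 targets, -0.071 for oxidative phosphorylation, -0.033 for chaperones and 0.095 for lysosome genes. Without that library the medians were -0.13, 0.083, -0.26 (36 of 37 negative), -0.098 and 0.088 in the same order, and that of p53 targets had changed sign. Of 36 genes for RNA polymerase II and elongation factors 0 passed, and 30 had negative values (median -0.11), or 27 (median -0.18) without WT day 1 replicate 1. Polr2a, the large subunit, had 0.055 (SE 0.201), and DESeq2 called Tcea3, a TFIIS factor, lower at -0.48 (SE 0.136), with -0.82 in the mutant and -0.14 in WT.

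Medians of the lists of other cell types shifted without WT day 1 replicate 1, in a fit that keeps WT day 2 replicate 1. Smooth muscle genes had 0 of 12 members past the test and a median of -0.93, with -0.515 in the mutant and -1.3 in WT. Without WT day 1 replicate 1 the median was 0.10 and that in WT 0.733, while the mutant step holds no WT library. Fibroblast and stromal genes had 0 of 25 and a median of -0.45, or 0.13 without it, and trophoblast genes had 1 of 16 lower, Lgals3, with medians of -0.50 and 0.31. Mesoderm genes had 0 of 20 and medians of -0.39 and -0.16, and cytoskeleton and adhesion genes had 1 of 30 lower, Tuba1a, with -0.35 and 0.064. Imprinted genes had 1 of 18 lower, Cdkn1c, with -0.33 and 0.069. Primitive endoderm genes had 0 of 21 past the test, with a median of 0.53 in the mutant, -0.25 in WT and 0.17 on average. Without that library WT day 1 was replicate 2 alone, which had the most Gata6 of the libraries of days 1 and 2. The WT median was then -0.68 and the average -0.076. Gata6, a regulator of that lineage, had -0.12 (SE 0.902). Krt19, a keratin of simple epithelia, was at 26.6 and 21.7 CPM in WT at day 2 and 140 and 15.9 CPM in WT at day 1. In the mutant it was at 4.14 and 4.75 CPM at day 2 and 2.59, 3.80 and 2.95 CPM at day 1. DESeq2 called Gata2, Tead4 and Fn1 higher, and Evx1, S100a6, Lox, Anxa2 and Dlk1 lower. The part of such cells in the other results was not tested, beyond the values given without the library. Of 38 lists, 27 had a negative median, and 10 of those turned positive and 1 positive median turned negative without WT day 1 replicate 1.

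**Figure D5:**
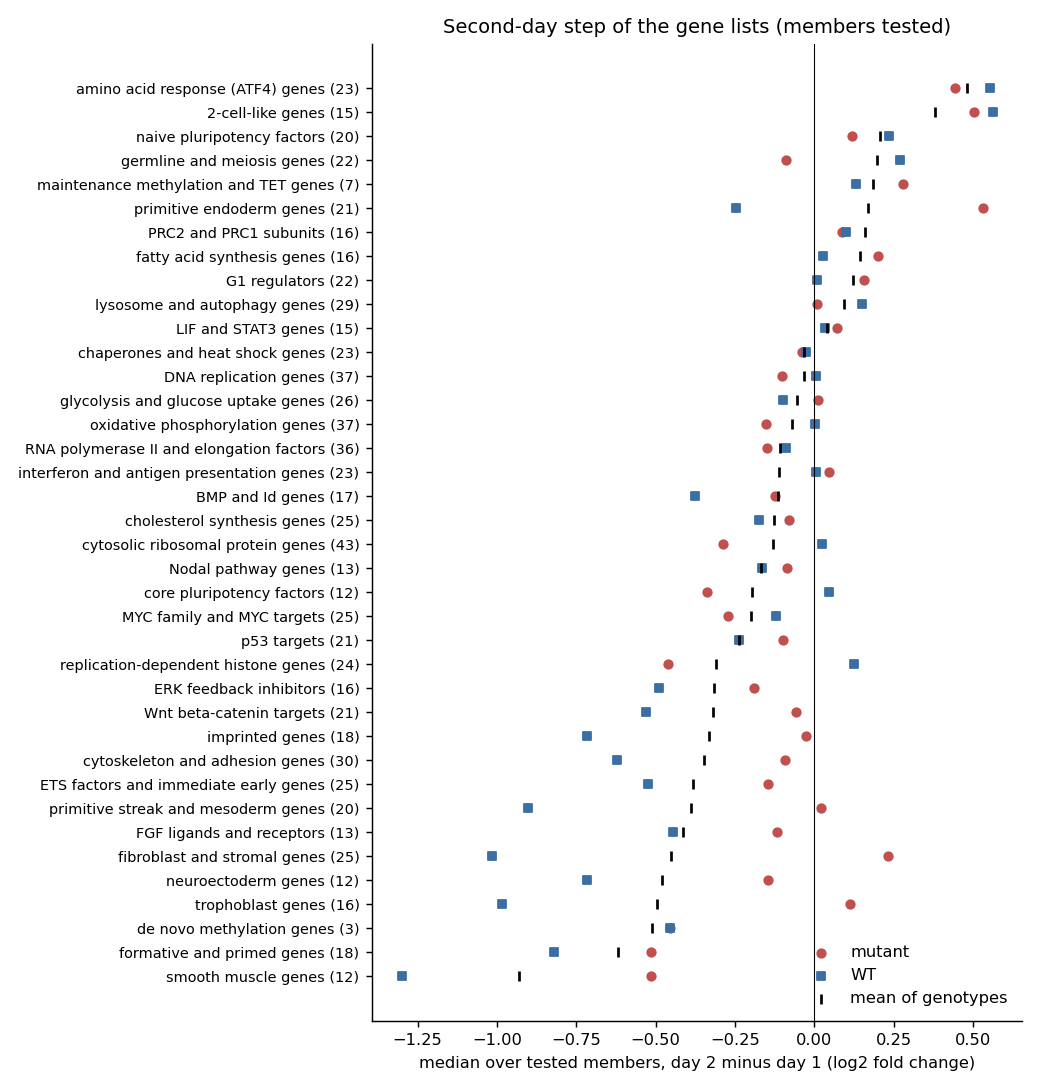
Median second-day step (log2 fold change, x axis) of the tested members of each of 38 gene lists, with the number tested in brackets, in the mutant (red circles), WT (blue squares) and on average (black bars). Smooth muscle genes lie lowest on average (-0.93) and amino acid response genes highest (0.48), and WT lies well below the mutant for stromal, trophoblast and mesoderm genes.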

How the data were processed

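RNA-seq counts per gene came from one deposited table of 17 libraries and 20621 gene symbols. STAR, deepTools and the mm10 build are named, per the submitters' processing notes. Their versions, how genes were counted, with which annotation and strand, and what was done with multi-mapping reads are not given in the sources used here. No column was left unused. The fit used edgeR 4.0.16 in R 4.3.3. Libraries were scaled by TMM, filterByExpr kept 15365 genes given the 8 groups of genotype and day, followed by a quasi-likelihood fit with 1 coefficient per group over all 17 libraries, with 9 residual degrees of freedom and a common biological coefficient of variation of 0.333. The second-day step is the mean over genotypes of day 2 minus day 1, which holds genotype as a block. A call is a Benjamini-Hochberg adjusted p under 0.05 over all genes, two-sided, and SE is the log2 fold change over the root of the F statistic. CPM use TMM library sizes.

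The genes named were up to 12 rises and 12 falls past the test, at 5 CPM or more and without overlap within a genotype, up to 4 called genes per list, and 35 genes given whether or not they passed. The members and lists were chosen with earlier results of these data known. Other list members given as values, Spink1, the promoters and their motifs were chosen after their values were seen. Positions are from GENCODE M21 on GRCm38 (99.6% of symbols matched) and promoters from RefSeq on GRCm38.p6. Alternatives were DESeq2 1.42.0, RLE size factors, no filter, a filter of 1 CPM in 4 libraries, only the days compared, replicate blocks, and fits without single libraries. Offsets for gene span, and a fit without replicate 1 of WT days 0 and 1 (the stromal pair), were chosen after seeing the data. The procedure was tested on simulated data.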

Additional observations from a re-analysis of the deposited data

How the results depend on the processing

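For the second-day step averaged over genotypes, 10 genes passed, and the count was 337 by DESeq2, 1 with RLE size factors, 5 with only the days compared, 93 with the replicate block, 236 with the replicate block in WT only and 6 without the stromal pair. Leaving out single libraries gave 0 to 4. Of the libraries left out, mutant day 1 replicate 3, mutant day 2 replicate 1 and WT day 2 replicate 2 gave 0 (1576, 1006 and 1457 genes at an unadjusted p under 0.05, DESeq2 not run there). WT day 1 replicate 1 and mutant day 2 replicate 2 gave 1, the first 2 mutant day 1 replicates and WT day 1 replicate 2 gave 2, and WT day 2 replicate 1 gave 4. No filter and the stricter filter each gave 10 and span offsets 13. All 10 genes were among the calls of DESeq2 and of both blocks. For WT alone the count was 0, and 34 by DESeq2, 3 with the replicate block and 3 with the block in WT only, with 0 in each fit that left out a library. For the mutant alone it was 0, and 60 by DESeq2, 1 with the replicate block, 6 with the block in WT only and 0 to 1 with a library left out. For the difference between genotypes every setting gave 0, by edgeR with a library left out 79 to 677 at an unadjusted p under 0.05. For the first day 747 passed, and 1641 by DESeq2, 448 with only the days compared, 1349 with the replicate block, 1926 with the block in WT only and 274 to 1044 with a library left out. For day 7 against day 0 the 4200 calls ranged from 2752 to 3974 with a library left out. The cause of these shifts was not tested.

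Same-numbered libraries deviated together in 4 of 8 pairs (r = -0.342 to 0.67). In groups of 2 the replicates mirror each other, so these 4 hold only 2 separate values, 0.67 between the WT days and 0.503 between genotypes at day 2. The pairs of mutant days were at -0.342 and -0.221, so the numbers were not taken as pairing all samples. In WT the numbers did carry a trait across days: Acta2 was at 151, 327 and 41.5 CPM in replicate 1 after 0, 1 and 2 days and at 0.102, 0.118 and 0 CPM in replicate 2. Among genes whose WT days overlap, Lefty1, Wnt8a, Dnmt3l, Axin2 and Lef1 were lower at day 2 within both WT numbers. Tfcp2l1 and Otx2 were higher within both, and Myc differed in direction between the numbers. Of 180 values for the 10 genes under other settings, 75 passed, 105 missed the threshold and 0 reversed. With 2 or 3 libraries per group, the smallest change that passed was 1.98-fold.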

Other observations

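Lists not described above had 0 members past the test in edgeR. The 2-cell-like genes, which mark a rare totipotent-like state, had 14 of 15 positive values (3 with an unadjusted p under 0.05, 0 by DESeq2) and a median log2 step of 0.38, or 0.32 without WT day 1 replicate 1. Their summed level did not rise with it, and its days overlapped in both genotypes. It was 245 and 237.6 CPM in the mutant at day 2 and 218.4, 317.2 and 315.7 CPM at day 1. In WT it was 283.3 and 224.7 CPM at day 2 and 321.1 and 268.3 CPM at day 1. Polycomb subunits, which repress developmental genes, had 15 of 16 positive values and a median of 0.16 (1 unadjusted, 0 by DESeq2). Germline and meiosis genes had a median of 0.20 over 22 genes, with -0.090 in the mutant and 0.27 in WT (2 unadjusted, 0 by DESeq2), and 0.055 without that library. Replication-dependent histone genes had 20 of 24 negative values and a median of -0.31, with -0.46 in the mutant and 0.13 in WT. Without WT day 1 replicate 1 the median was -0.54 and that in WT -0.40, so the sign in WT differed between the fits. The second fit holds only replicate 2 of WT at day 1. Their transcripts mostly lack poly(A) tails and have near-identical copies, and DESeq2 called 1, Hist1h4i, at -0.97. Neuroectoderm genes had a median of -0.48 over 12 genes, or -0.38 without that library, with Tubb3, a neuronal tubulin, called lower by DESeq2 at -1.01. Interferon and antigen presentation genes had a median of -0.11 over 23 genes, which was 0.23 with 15 positive values without that library, with Stat2, which relays interferon signals, called higher by DESeq2 at 0.70.

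Beyond the 10 genes, 14 more lay just past the threshold, at an adjusted p between 0.05 and 0.1, and they were picked out after their values were seen. None of them overlapped between days within a genotype, which was so for 1218 of the 15365 genes tested. The 10 genes that passed were 0.0651% of all 15365. Crmp1, a mediator of axon guidance signals, averaged 36.1 CPM in the mutant at day 2 and 74.5 CPM at day 1, and 15.6 and 43.7 CPM in WT, with a log2 fold change of -1.27 (SE 0.221). Mboat1, a lysophospholipid acyltransferase, had -1.34 (SE 0.236) and Eno3, the muscle enolase, -1.03 (SE 0.178), both at adjusted p = 0.0655. Among the higher ones, Acss1, which makes acetyl-CoA in mitochondria, averaged 38.5 CPM in the mutant at day 2 and 21.1 CPM at day 1, and 47.4 and 18.8 CPM in WT, with 1.10 (SE 0.200), adjusted p = 0.0697. Arl14epl had 1.67 (SE 0.314), adjusted p = 0.0917, and 4.37 from day 0 to day 7.

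Genes of at least 100 kb had a median second-day step of 0.13 in the mutant, where other genes had -0.0040, and of -0.041 in WT, where other genes had 0. Of the genes that rose, Ablim1 spans 282 kb, Atp2b4 102 kb and Tmem194 34.1 kb, and with span offsets their log2 fold changes were 1.56, 1.29 and 1.06, each past the test. With those offsets Id1, Tuba1a, Tmsb4x and Fundc2 missed the threshold (adjusted p = 0.204, 0.13, 0.138 and 0.0586).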
